A study of Homo sapiens with 6 samples.

Results

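Breast cancer cells that grow in bone share a set of genes, of which 10 were followed: CXCR4, ADAMTS1, FGF5, SPP1, SRGN, FST, MCAM, CCN1, CCN2 and RUNX2. They were taken by name, with every probe set of the array whose annotation lists one of them alone, by its current or an older symbol. This gave 19 probe sets out of 22283, and all 10 genes were represented, of 11963 genes that the annotation names alone. The cells were MDA-MB-231, a human breast cancer line that is widely used to model metastasis to bone. In the siPTHrP group the cells had been electroporated with an siRNA against parathyroid hormone-related protein, and in the siLuc group with a control siRNA against luciferase. Both groups were grown for 3 days before total RNA was taken. Each of 3 independent experiments gave 1 array of each group, so that each group held 3 arrays, compared within the experiment. The siRNA sequences, and any second siRNA to the same transcript, are not stated in the labels, and the targeted transcript was not analysed here, so the knockdown was not checked.

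Bone-seeking derivatives of this cell line are known for high expression of a small set of genes for homing, matrix breakdown and growth factor supply, and several of the 10 genes come from that set. PTHrP made by tumour cells acts on osteoblasts, which then drive osteoclasts to resorb bone, and resorbed bone releases factors that act back on the tumour cells. Osteomimicry is the name for the use of bone cell genes, such as RUNX2 and its target SPP1, by tumour cells. The PTHrP receptor signals mainly through cyclic AMP and protein kinase A, whose nuclear arm acts at the cyclic AMP response element (CRE).

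By unadjusted p, SRGN and ADAMTS1 came first among the 10 genes, both lower with siPTHrP. SRGN, the intracellular and secreted proteoglycan serglycin, stood at 0.545-fold of the siLuc level on one probe set and at 0.673-fold on the other. ADAMTS1, a secreted metalloprotease that cuts matrix proteoglycans, stood at 0.549-fold. MCAM, a cell adhesion molecule of the immunoglobulin family, stood at 0.730-fold on the probe set that lists it alone, but its 4 other probe sets overlapped between groups. On the SRGN and ADAMTS1 probe sets and on that one of MCAM, all 3 siPTHrP arrays lay below all 3 siLuc arrays. CCN1 stood at 0.844-fold and 0.901-fold on its probe sets, CCN2 at 1.07-fold and the brighter probe set of FST at 1.05-fold, with overlapping groups, and CXCR4, SPP1, RUNX2 and FGF5 differed in direction between experiments or between probe sets. No probe set of the 10 genes passed the threshold over all probe sets.

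Of the 19 probe sets, 14 passed a filter on low signal, which kept 13329 probe sets of the whole array with a mean signal of about 376 or more. The filter used the mean over all 6 arrays. Those 14 covered 9 genes. SPP1 had no probe set that passed, and CXCR4 and RUNX2 had 1 of 3 each. In limma, with the experiment as a block, 0 of the 14 had a Benjamini-Hochberg adjusted p under 0.05, against 0% of all kept probe sets. At an unadjusted p under 0.05 there were 3 of 14 lower with siPTHrP, the 2 of SRGN and that of ADAMTS1, where 5.36% of all kept probe sets were lower. None of the 14 was higher at that level, where 6.77% of all kept probe sets were. Lower in all 3 experiments were 6 of 14, against 19.0% of all kept probe sets, and higher in all 3 was 1 of 14, against 19.1%. In 5 of 14 the siPTHrP arrays all lay below the siLuc arrays, against 9.69% of all kept probe sets, and in 0 of 14 they all lay above, against 8.94%. Probe sets of 1 gene are not independent of each other. The median log2 fold change of the 14 was -0.25, and that of all kept probe sets was 0.030.

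**Figure D1:**
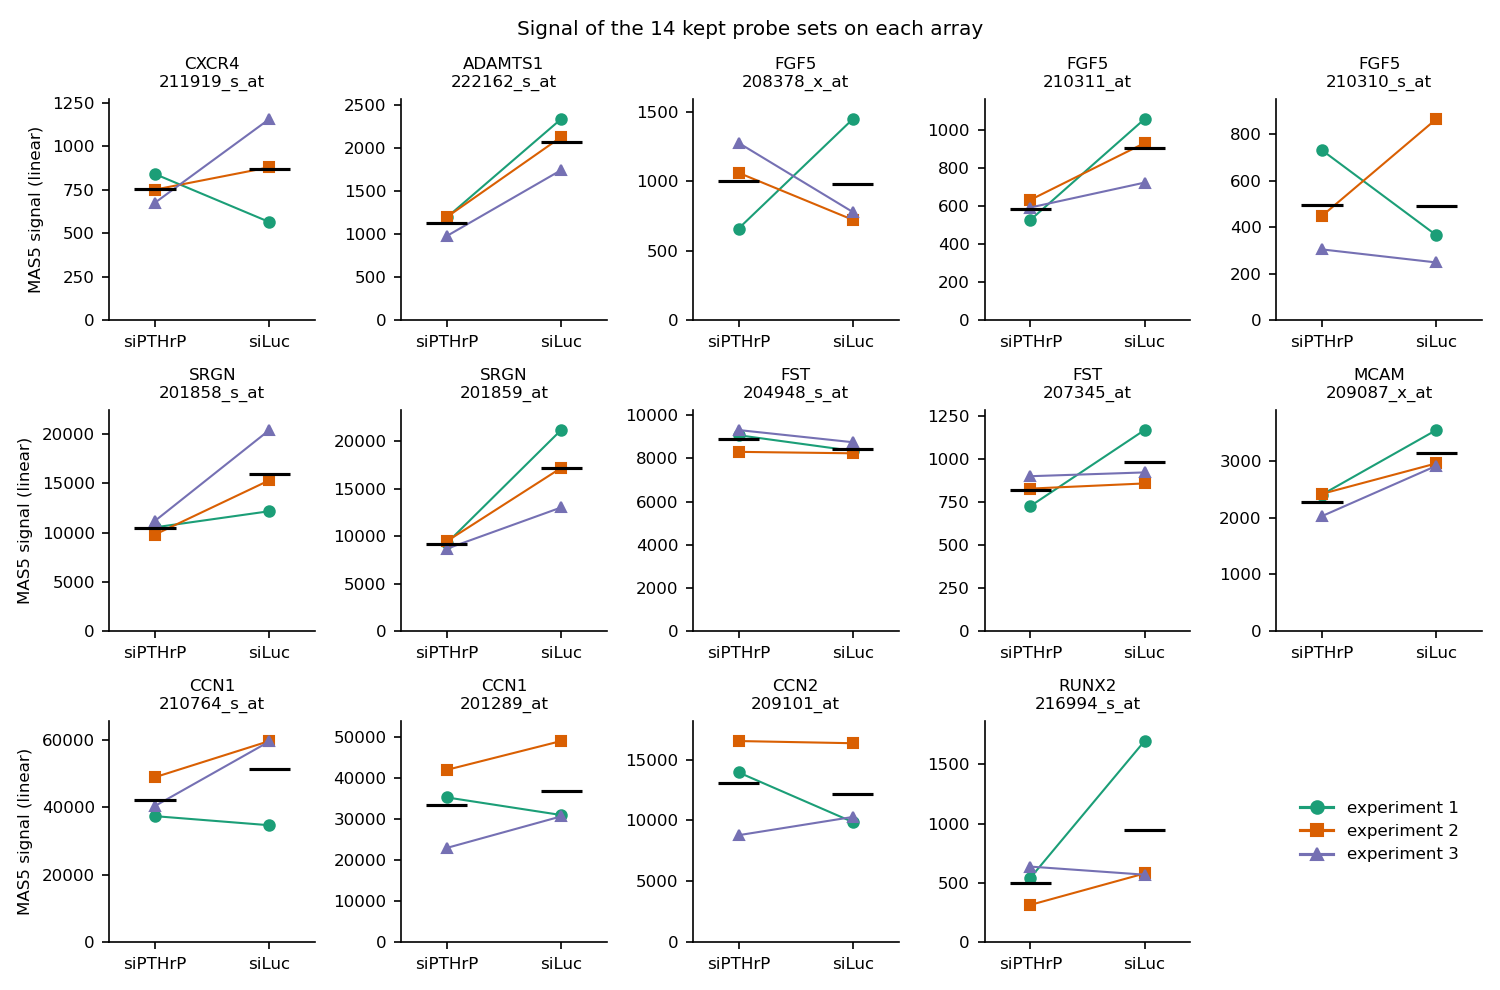
Deposited MAS5 signal (linear, y axis from 0) of the 14 kept probe sets on the siPTHrP and siLuc arrays, with arrays of 1 experiment joined by a line and group means as black bars (n = 3 arrays each). SRGN, ADAMTS1 and MCAM were lower with siPTHrP in all 3 experiments, while the CXCR4 and CCN2 lines cross.

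The siLuc array of experiment 1 stood apart. Across probe sets its Spearman rank correlation with the other 5 arrays was 0.716 to 0.725, while those 5 correlated at 0.882 to 0.960. Its median signal was 887, and that of the other 5 arrays lay between 559 and 659. Its geometric mean over 18 hybridisation control probe sets was 273057, against 10838 to 41428 on the other 5 arrays. Of its deposited values 90.1% carried decimals, which are rounded here, and 0% did on the others. For the kept probe sets of the 10 genes, and for many named list genes in which this array was extreme, values without experiment 1 are also given. All 8 markers chosen for this cell line, among them VIM, CD44, EGFR and AXL, were above the filter, with a summed signal of 270935 to 352094 on siPTHrP arrays and 282979 to 333806 on siLuc arrays. Of 8 luminal markers, PGR, CDH1 and EPCAM had no probe set above it, and the other 5 (KRT19, ESR1, ERBB3, GATA3, FOXA1) summed to 3234 to 4100 with siPTHrP and 3118 to 5404 with siLuc. KRT19 was higher in all 3 experiments, by 0.92, 1.22 and 0.36 (log2), at 1.78-fold (limma adjusted p = 0.429), with no overlap of groups. The other 4 luminal markers were below 0, and the median log2 fold change of the 5 was -0.24. ESR1 was lower in all 3 experiments, at 0.470-fold (adjusted p = 0.454). Of 7 blood cell markers on the array, PTPRC, CD14, HLA-DRA and LYZ had none, and the other 3 summed to 1982 to 2273 with siPTHrP and 2510 to 3627 with siLuc. Of 5 markers of osteoblasts and stroma, IBSP, LUM and PDGFRB had none, while DCN and COL1A1 summed to 2126 to 3455 with siPTHrP and 3752 to 4372 with siLuc. The groups also did not overlap for the markers ANXA1 at 1.63-fold, HBB at 0.604-fold and DCN at 0.386-fold (limma adjusted p = 0.324, 0.441 and 0.396). The part of these cell types in the results was not tested.

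Serglycin carries long glycosaminoglycan chains, is best known from secretory granules of blood cells, and binds CD44. On probe set 201859_at SRGN had a signal of 9268, 9475 and 8687 on the siPTHrP arrays of experiments 1, 2 and 3, against 21156, 17171 and 13020 on the siLuc arrays. The siPTHrP arrays were close to each other and all lay below the lowest siLuc array. The log2 fold change was -0.88 (SE 0.18, 95% interval -1.27 to -0.48, limma adjusted p = 0.287). This was the 28th smallest p of 13329 (unadjusted p = 0.000691 in limma). On probe set 201858_s_at the siPTHrP arrays gave 10531, 9805 and 11194, against 12165, 15295 and 20378 on the siLuc arrays. Again the groups did not overlap, and the log2 fold change was -0.57 (SE 0.18, 95% interval -0.97 to -0.17, adjusted p = 0.347). The order of the experiments was opposite on the 2 probe sets: experiments 1, 2 and 3 differed by -1.19, -0.86 and -0.58 (log2) on 201859_at, and -0.21, -0.64 and -0.86 on 201858_s_at. The ratio of the first to the second signal was 0.880, 0.966 and 0.776 on the siPTHrP arrays and 1.74, 1.12 and 0.639 on the siLuc arrays, so the probe sets parted on the siLuc arrays. Without experiment 1 the log2 fold changes were -0.72 and -0.75 (adjusted p = 0.120 and 0.111), with the order of experiments 2 and 3 still opposite on the probe sets. With estimated array weights both passed the threshold (adjusted p = 0.0187 and 0.0423), where 0.578% of all kept probe sets passed as lower. Without experiment 3 only 201859_at did (log2 fold change -1.02, adjusted p = 0.00476), against 0.518% of all kept probe sets. That fit held 2 arrays a group, and its SE was larger, at 0.24 against 0.18 with all experiments. Its smaller p thus did not come from a tighter estimate.

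ADAMTS1 cleaves proteoglycans such as versican and sheds membrane-bound growth factors of the EGF family. Its probe set gave 1195, 1199 and 979 on the siPTHrP arrays, against 2336, 2127 and 1743 on the siLuc arrays. The highest siPTHrP array lay well under the lowest siLuc array. The log2 difference was alike in the 3 experiments, at -0.96, -0.82 and -0.82. The log2 fold change was -0.87 (SE 0.28, 95% interval -1.51 to -0.22, limma adjusted p = 0.360), with a mean signal of 1124 ± 126 with siPTHrP and 2069 ± 301 with siLuc (SD, n = 3 each). Without experiment 1 it was -0.82 (adjusted p = 0.222). Its family and substrates gave smaller values: of 11 genes chosen for this list 8 were on the array, 5 had a kept probe set, and 0 had an unadjusted p under 0.05. The protease inhibitor TIMP3 stood at 1.14-fold, the substrate VCAN (versican) at 0.904-fold and the relative ADAMTS6 at 0.891-fold, with adjusted p from 0.754 to 0.927. VCAN and ADAMTS6 turned above 1 under another scaling.

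MCAM, also called CD146, takes part in adhesion of melanoma and endothelial cells. The bases before its annotated start site are shown because they hold the CRE, in capitals, through which cyclic AMP signals act on genes. They come from the RefSeq annotation on GRCh38.p14 (chr11:119317131-119317380, minus strand, 5′ to 3′ on the gene's strand, ending at the base before the start site).
MCAM: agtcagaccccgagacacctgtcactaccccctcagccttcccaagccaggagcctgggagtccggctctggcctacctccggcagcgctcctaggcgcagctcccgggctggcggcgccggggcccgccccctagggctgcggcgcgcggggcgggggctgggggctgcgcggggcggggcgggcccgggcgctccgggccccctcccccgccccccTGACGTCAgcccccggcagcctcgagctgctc
The full element, TGACGTCA, reads the same on both strands and so holds the core TGACGT on each. It occurs in 1.65% of 35114 such windows of 250 bases, and the core on either strand in 7.1%. Of 11 windows, found for 7 of the genes followed here, 1 held the core, that of MCAM. No window was found for SRGN, ADAMTS1 or CCN1, so these genes were not searched for it. A match is a description of the letters only. MCAM had a signal of 2403, 2416 and 2025 on the siPTHrP arrays, against 3537, 2951 and 2908 on the siLuc arrays. All siPTHrP arrays were below all siLuc arrays. The log2 fold change was -0.45 (SE 0.22, 95% interval -0.95 to 0.048, limma adjusted p = 0.444), and it was -0.40 without experiment 1 (adjusted p = 0.448). A further 4 probe sets list MCAM together with the microRNA gene MIR6756 and were left out by the rule. They had log2 fold changes between -0.36 and 0.23, and on each of them the groups overlapped.

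**Figure D2:**
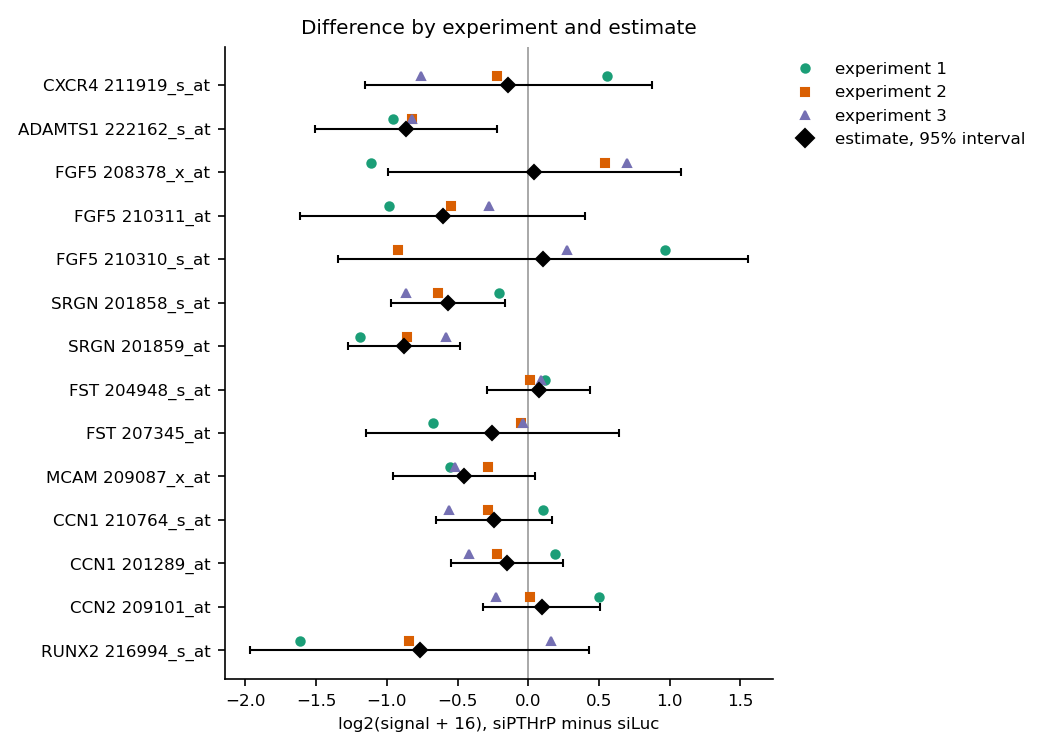
Difference siPTHrP minus siLuc in log2(signal + 16) of each kept probe set in the 3 experiments (coloured symbols), with the limma estimate and its 95% interval (black). The intervals of both SRGN probe sets and of ADAMTS1 lie below 0, before adjustment for the number of probe sets, and those of the other 11 include 0.

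CCN1 and CCN2 are matricellular proteins that bind integrins, and in many cells their genes are induced by YAP and TEAD factors and by TGF-beta. The window before the start site of CCN2 is shown because it holds 3 copies of GGAATG, the TEAD motif, in capitals (chr6:131951373-131951622, minus strand, same source and orientation).
CCN2: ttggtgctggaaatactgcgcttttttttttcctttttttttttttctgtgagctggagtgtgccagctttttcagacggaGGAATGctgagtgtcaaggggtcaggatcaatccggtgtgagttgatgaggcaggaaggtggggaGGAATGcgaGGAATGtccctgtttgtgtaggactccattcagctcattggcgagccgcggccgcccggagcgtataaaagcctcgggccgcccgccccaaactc
GGAATG on either strand occurs in 11.9% of all such windows, and in 2 of the 11 windows found for the genes followed here. CCN2 had 13944, 16516 and 8793 on the siPTHrP arrays, against 9872, 16336 and 10290 on the siLuc arrays. The groups overlapped throughout. Its log2 fold change was 0.096 (95% interval -0.32 to 0.51, limma adjusted p = 0.838), and it was -0.11 without experiment 1. As a fold the interval with all experiments was 0.801 to 1.42. It depends on the variance model, as the SE was 0.18 in this fit and 0.27 without the intensity trend. CCN1 on probe set 210764_s_at had 37364, 48899 and 40389 on the siPTHrP arrays, against 34676, 59595 and 59471 on the siLuc arrays. Experiments 2 and 3 were lower with siPTHrP and experiment 1 was higher. The log2 fold change was -0.25 (95% interval -0.66 to 0.16, adjusted p = 0.566) and -0.42 without experiment 1 (adjusted p = 0.335). In that fit its unadjusted p was 0.0405 and that of MCAM was 0.0986 (limma). Probe set 201289_at gave 35304, 42011 and 23003 with siPTHrP, against 31018, 49028 and 30682 with siLuc. Its log2 fold change was -0.15 (95% interval -0.55 to 0.24, adjusted p = 0.722), and -0.32 without experiment 1 (adjusted p = 0.446). Again experiments 2 and 3 were lower and experiment 1 was higher. On all 3 probe sets of this pair of genes the difference was highest in experiment 1 and lowest in experiment 3.

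Of 17 other genes of the CCN family and of YAP and TEAD signalling, 14 were on the array and 11 had a kept probe set. Their median log2 fold change was 0.062, with 5 below 0 and 6 above. At an unadjusted p under 0.05 there was 1 higher and 1 lower, against 6.77% and 5.36% of all kept probe sets. WWTR1, the coactivator TAZ, had 3205, 2595 and 1728 with siPTHrP, against 1649, 1387 and 877 with siLuc, or 0.94 as a log2 fold change (SE 0.26, limma adjusted p = 0.328). Its siPTHrP arrays all lay above its siLuc arrays. Tissue factor, F3, stood at 0.732-fold (adjusted p = 0.404) and was lower in all 3 experiments. CCN3, another member of the family, stood at 0.472-fold (adjusted p = 0.416), with overlapping groups, and its log2 fold change was -1.08 over all experiments and -0.57 without experiment 1.

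FST, follistatin, binds and blocks activins and some bone morphogenetic proteins. On probe set 204948_s_at it had 9065, 8296 and 9304 on the siPTHrP arrays, against 8342, 8229 and 8741 on the siLuc arrays. The 6 arrays were close together. The log2 fold change was 0.074 (95% interval -0.29 to 0.44, or folds of 0.818 to 1.35 in this fit, limma adjusted p = 0.862). It was higher in all 3 experiments, by 0.12, 0.012 and 0.090. The estimate was 0.051 without experiment 1 and -0.082 with quantile normalization. Probe set 207345_at gave 727, 829 and 901 with siPTHrP, against 1169, 859 and 923 with siLuc. Experiment 1 carried most of its difference, with -0.67 against -0.050 and -0.034 in experiments 2 and 3. Its estimate was -0.25 with all experiments and -0.042 without experiment 1.

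All 13 other genes of the activin and follistatin system were on the array and 12 had a kept probe set, with a median of -0.068, 6 below 0 and 6 above. At an unadjusted p under 0.05 there was 1 lower and 1 higher, against 5.36% and 6.77% of all kept probe sets. BMP7, a bone morphogenetic protein, had 869, 710 and 1245 with siPTHrP, against 4183, 1336 and 2129 with siLuc (log2 fold change -1.30, SE 0.37, limma adjusted p = 0.328). The inhibitory SMAD7 had 968, 1046 and 575 with siPTHrP, against 74, 376 and 522 with siLuc (1.68, SE 0.73, adjusted p = 0.410). The groups did not overlap for either gene, but the siLuc array of experiment 1 was the most extreme in both. Without experiment 1 BMP7 was at -0.83 (unadjusted p = 0.0139 in limma) and SMAD7 at 0.79, where its unadjusted p was 0.147 in limma and no longer under 0.05. The follistatin-like FSTL3 stood at 0.686-fold (adjusted p = 0.473), or -0.54 on the log2 scale, and at -0.35 without experiment 1.

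**Figure D3:**
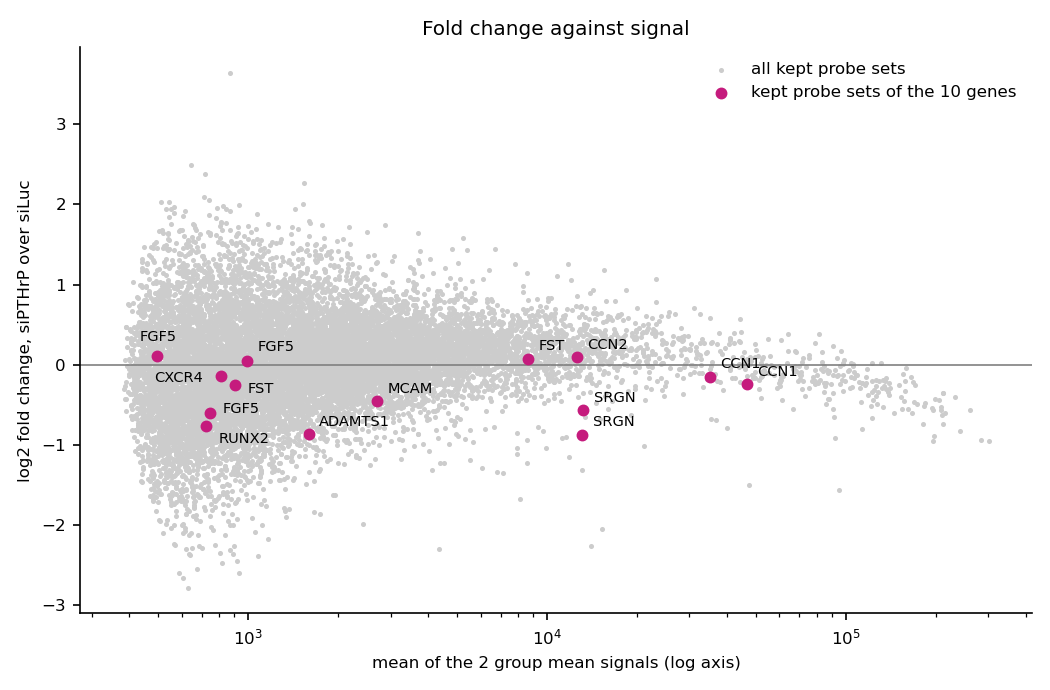
Log2 fold change (siPTHrP over siLuc, y axis) against the mean of the 2 group mean signals (log x axis) for all 13329 kept probe sets (grey) and the 14 of the 10 genes (magenta). Both SRGN points lie below most grey points of like signal, ADAMTS1 lies low in its range, and CCN1, CCN2 and the brighter FST point lie between -0.25 and 0.10.

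CXCR4 is the receptor of the chemokine CXCL12, which bone marrow stroma secretes. On its kept probe set, 211919_s_at, it had 840, 751 and 676 on the siPTHrP arrays, against 565, 879 and 1156 on the siLuc arrays. The siPTHrP arrays all lay inside the range of the siLuc arrays. Experiments 1, 2 and 3 differed by 0.56, -0.22 and -0.76 (log2), with an estimate of -0.14 (95% interval -1.16 to 0.87, limma adjusted p = 0.911). Without experiment 1 it was -0.49 (adjusted p = 0.604), and without experiment 3 it was 0.17. The probe sets under the filter had signals of 121 to 182 with siPTHrP and 101 to 237 with siLuc on 209201_x_at, and of 19 to 112 and 68 to 156 on 217028_at. On the first of them the 3 experiments had the same signs as on 211919_s_at.

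Of 12 genes chosen around CXCR4, 11 were on the array and 9 had a kept probe set, with a median of -0.48, 6 below 0 and 3 above. At an unadjusted p under 0.05 there were 2 lower and 2 higher, against 5.36% and 6.77% of all kept probe sets. GNAI3, an inhibitory G protein subunit that such receptors use, had 9571, 9968 and 10627 with siPTHrP, against 7151, 6361 and 7290 with siLuc (log2 fold change 0.54, SE 0.16, limma adjusted p = 0.345). Both groups were tight and did not overlap. The arrestin ARRB1, which uncouples receptors, stood at 0.533-fold (adjusted p = 0.374), and the receptor kinase GRK2 at 0.718-fold (adjusted p = 0.405). Both were lower in all 3 experiments with no overlap of groups. MIF, a cytokine that binds CXCR4, was the second gene higher, at 1.41-fold, with overlapping groups. It was named after its values were seen. Its log2 fold change was 0.49 over all experiments and 0.17 without experiment 1, where its unadjusted p was 0.343 in limma.

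RUNX2 is the transcription factor that commits cells to the osteoblast lineage, and SPP1, osteopontin, is a secreted bone matrix protein that binds integrins and CD44. The window before the start site of SPP1 is shown because it holds the RUNX motif TGTGGT, in capitals on the opposite strand as ACCACA (chr4:87975464-87975713, plus strand, same source).
SPP1: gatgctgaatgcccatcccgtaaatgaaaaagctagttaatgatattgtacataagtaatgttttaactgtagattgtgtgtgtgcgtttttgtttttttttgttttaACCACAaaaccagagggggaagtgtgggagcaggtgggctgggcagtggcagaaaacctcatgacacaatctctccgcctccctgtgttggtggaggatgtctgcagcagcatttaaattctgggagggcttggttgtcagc
TGTGGT on either strand occurs in 11% of all such windows, and in 2 of the 11 windows found for the genes followed here. In the RefSeq windows of RUNX2, of which there are 2, the first held 2 copies and the second none. Windows were found for 7 of the 10 genes, SRGN, ADAMTS1 and CCN1 being the others. SPP1 had a signal of 449, 357 and 193 on the siPTHrP arrays, against 112, 168 and 249 on the siLuc arrays. These signals averaged under the filter and the groups overlapped. Experiments 1, 2 and 3 differed by 1.86, 1.02 and -0.34 (log2). In a limma fit without the filter its log2 fold change was 0.85 (95% interval -0.90 to 2.59).

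RUNX2 on 216994_s_at, its kept probe set, had 543, 316 and 639 on the siPTHrP arrays, against 1697, 581 and 571 on the siLuc arrays. The siLuc array of experiment 1 was far above the other 5, and the groups overlapped. The log2 fold change was -0.77 (95% interval -1.97 to 0.43, limma adjusted p = 0.542), and it was -0.34 without experiment 1 (adjusted p = 0.835). Under the filter, 221282_x_at gave 164, 93 and 108 with siPTHrP, against 288, 228 and 475 with siLuc. These groups did not overlap, and the log2 difference was -0.75, -1.16 and -1.99. The other probe set, 221283_at, gave 221, 74 and 385 with siPTHrP, against 94, 702 and 120 with siLuc, with no common direction.

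A further list held osteoblast and mineralisation genes around RUNX2 and SPP1. Of 22, 18 were on the array and 10 had a kept probe set; IBSP, SPARC, DLX5, MSX2, BMP4, OMD, TWIST1 and POSTN did not. The median of the 10 was -0.13, with 6 below 0 and 4 above. At an unadjusted p under 0.05, where 6.77% of all kept probe sets were higher and 5.36% lower, 0 were lower and 1 was higher. That gene was CBFB, the partner subunit of RUNX proteins, with 7426, 8183 and 6526 with siPTHrP, against 4192, 5133 and 5403 with siLuc. Its siPTHrP arrays all lay above its siLuc arrays (log2 fold change 0.59, SE 0.19, limma adjusted p = 0.355). Without experiment 1 its log2 fold change was 0.47. The cadherin CDH11 stood at 1.30-fold (adjusted p = 0.457) and the endopeptidase PHEX at 0.486-fold (adjusted p = 0.463). On the log2 scale they were 0.38 and -1.04 over all experiments, and 0.58 and -0.94 without experiment 1. All 8 receptors or receptor chains chosen for osteopontin and serglycin were on the array, and 6 had a kept probe set. Their median was 0.24, with 4 above 0 and 2 below. At an unadjusted p under 0.05, where 6.77% of all kept probe sets were higher, 1 of these was. This was ITGAV, the integrin alpha V chain, with 3077, 2809 and 1105 with siPTHrP, against 1288, 1265 and 697 with siLuc (1.01, SE 0.30, adjusted p = 0.332). It was higher in all 3 experiments, though experiment 3 was dimmer in both groups. Its partner chains differed: ITGB5 stood at 1.26-fold (adjusted p = 0.472) and ITGB3 at 0.531-fold (adjusted p = 0.519). The difference of ITGB3 lay in experiment 1, with a log2 fold change of -0.91 over all experiments and -0.11 without it.

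FGF5 is a secreted fibroblast growth factor, and its 3 probe sets did not share a direction. Probe set 210311_at had 528, 634 and 594 on the siPTHrP arrays, against 1060, 933 and 725 on the siLuc arrays. Here the groups did not overlap, with a log2 fold change of -0.60 (95% interval -1.61 to 0.40, limma adjusted p = 0.565) and of -0.41 without experiment 1. Probe set 208378_x_at had 660, 1061 and 1276 with siPTHrP, against 1447, 723 and 779 with siLuc. Its estimate was 0.043 (95% interval -0.99 to 1.08), with -1.11 in experiment 1, 0.54 and 0.70 in experiments 2 and 3, and an estimate of 0.62 without experiment 1 (adjusted p = 0.446). Probe set 210310_s_at had 731, 449 and 305 with siPTHrP, against 366, 865 and 249 with siLuc (0.11, 95% interval -1.34 to 1.56), and it was -0.32 without experiment 1. Of 10 other FGF ligands and receptors 9 were on the array and 6 had a kept probe set. All 6 were below 0, against 47.5% of all kept probe sets. They had a median of -0.75, but 0 had an unadjusted p under 0.05. Their median was -2.35, 0.22 and -0.43 in experiments 1, 2 and 3. FGFR3 stood at 0.413-fold, FGFR4 at 0.593-fold and FGFR2 at 0.576-fold, and in each the siLuc array of experiment 1 was the brightest, at 1631, 2060 and 1690. On the log2 scale they were -1.27, -0.75 and -0.80 over all experiments, and -0.44, -0.10 and 0.13 without experiment 1. The filter was applied anew in that fit, and the median over the genes of the list that it still kept was -0.10.

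**Figure D4:**
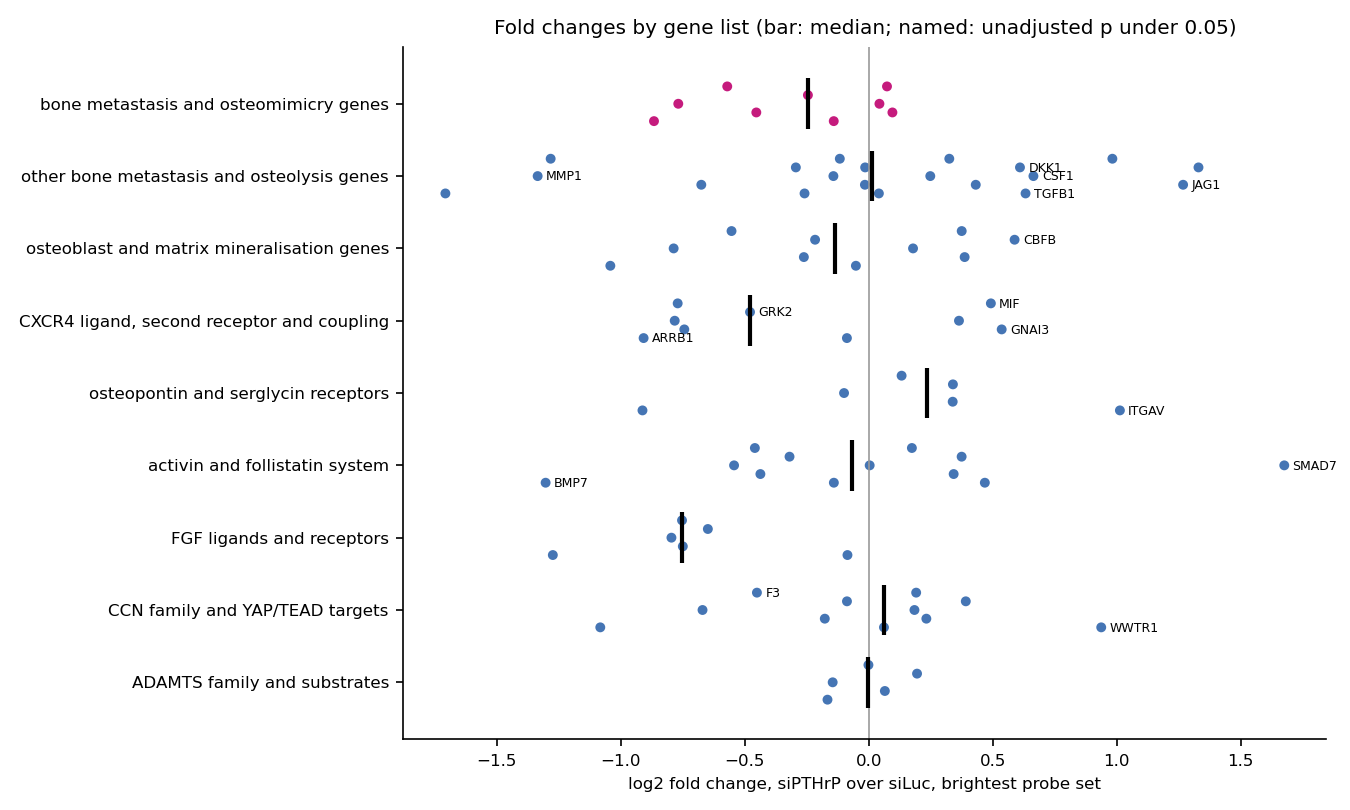
Log2 fold change (siPTHrP over siLuc, x axis) of the brightest kept probe set of each gene, by gene list, with the list's median as a black bar. The 10 genes (magenta, 9 with a kept probe set) had a median of -0.25, and genes named in blue lists had an unadjusted p under 0.05 in limma.

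Other genes of bone metastasis and osteolysis, 24 with 22 on the array and 20 with a kept probe set, had a median of 0.013, with 10 below 0 and 10 above. At an unadjusted p under 0.05 there were 4 higher and 1 lower, against 6.77% and 5.36% of all kept probe sets. The Notch ligand JAG1 had 8456, 9145 and 4030 with siPTHrP, against 3652, 2855 and 2118 with siLuc (log2 fold change 1.27, SE 0.21, limma adjusted p = 0.215). The collagenase MMP1 had 4352, 2084 and 4805 with siPTHrP, against 5070, 9099 and 15312 with siLuc (-1.34, SE 0.32, adjusted p = 0.321). Neither gene's groups overlapped. Without experiment 1 both passed the adjusted threshold in limma, JAG1 at 1.30 (adjusted p = 0.0338) and MMP1 at -1.89 (adjusted p = 0.00152). In that fit 0.158% of all kept probe sets passed as higher and 0.0900% as lower, and none of the 10 genes did. DKK1, a secreted Wnt inhibitor that restrains osteoblasts, had 23507, 18974 and 35588 with siPTHrP, against 12890, 20455 and 16909 with siLuc. It was higher in experiments 1 and 3 and lower in experiment 2 (0.61, SE 0.23, adjusted p = 0.388). Without experiment 1 it was 0.48, with an unadjusted p of 0.0575 in limma. The other two higher were TGFB1, at 0.63, and CSF1, at 0.66, both named after their values were seen. Without experiment 1 TGFB1 was 0.36, with an unadjusted p of 0.106 in limma, and CSF1 was 0.59. Without experiment 3 the unadjusted p of CSF1 was 0.266 in limma.

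The genes whose signal ran most like that of the 2 brightest members were listed by Pearson correlation of log2(signal + 16) over the 6 arrays. For CCN1 (210764_s_at) they were FSTL1, VGF and AKR1C2, with r of 0.984, 0.978 and 0.971. For SRGN (201858_s_at) they were TCP10L, RAB11FIP3 and IVNS1ABP, with r of 0.995, 0.992 and 0.989. With 6 arrays, 1 of them apart from the rest, and all kept probe sets with 1 gene name to choose from, such values describe these arrays only.

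**Figure D5:**
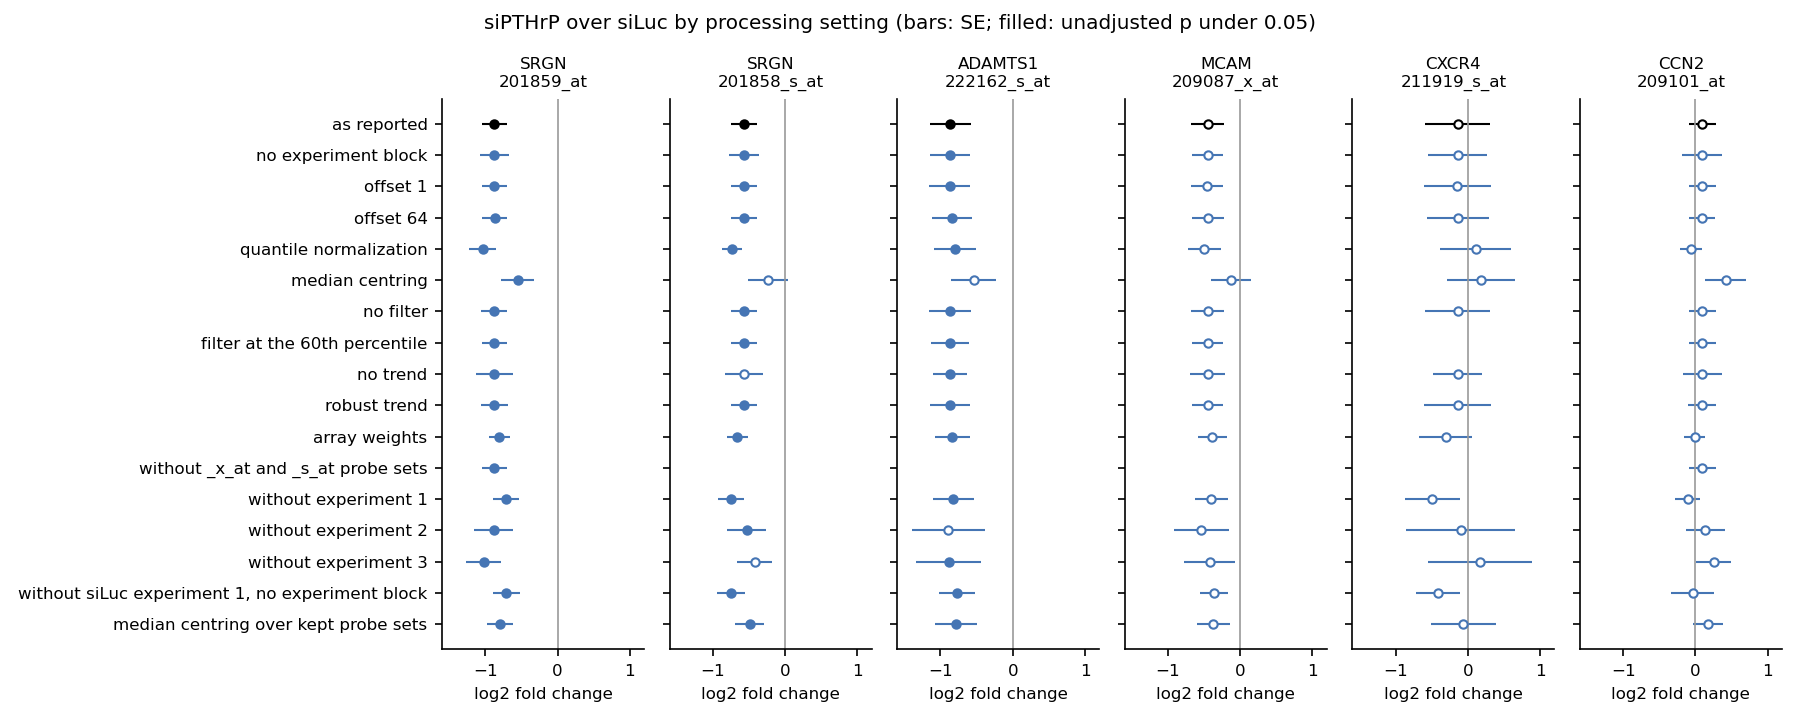
Log2 fold change (siPTHrP over siLuc, bars show SE) of 6 probe sets under each processing setting, with filled points at an unadjusted p under 0.05 and the value as reported in black. SRGN, ADAMTS1 and MCAM stay below 0 in all settings that could be run, and CXCR4 and CCN2 lie on both sides of 0.

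Across 13 to 16 other settings per probe set, the log2 fold change of SRGN ranged from -1.04 to -0.55 on 201859_at and from -0.75 to -0.24 on 201858_s_at. That of ADAMTS1 ranged from -0.89 to -0.54 and that of MCAM from -0.54 to -0.13. The weakest value of each came from median centring over all probe sets. It shifted all probe sets alike and moved the median of all kept probe sets to 0.356. In that setting the unadjusted p in limma was 0.0403 for SRGN on 201859_at and 0.401 on 201858_s_at. It was 0.118 for ADAMTS1 and 0.664 for MCAM. CXCR4 ranged from -0.49 to 0.19 and CCN2 from -0.11 to 0.42.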

How the data were processed

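Total RNA of 6 MDA-MB-231 samples had been column-purified and hybridised to Affymetrix human arrays with 22283 probe sets, per the labels' protocols. As deposited, the values are linear intensities from the MAS5 algorithm, a name given in the submitters' processing notes. No source used here names a version or its settings, and no detection calls were used. The trimmed mean was 1500.4 to 1500.6 on all 6 arrays, so the deposited scaling was kept. MAS5 subtracts mismatch signal, which makes low intensities noisy, and the number of arrays limits precision.

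With R 4.3.3 and limma 3.58.1, 68 control probe sets were left out, and probe sets at or above the 40th percentile of mean log2(intensity + 16) were kept. The offset shrinks folds of dim probe sets. A model with siRNA and experiment was fitted to all kept probe sets with lmFit and eBayes (intensity trend, 2 residual and 7.17 prior degrees of freedom); p-values are two-sided, adjusted by Benjamini-Hochberg over all 13329, with a threshold of 0.05. Fold changes are siPTHrP over siLuc. The experiment was a block because the design text pairs RNAs of 1 experiment. The unnumbered siLuc array was assigned to experiment 1 because the other numbers were in use. Where a title and a description differed in number the title was followed. This was so for the siLuc array of experiment 3, whose description gives the number 2. The pairing of the siLuc arrays of experiments 2 and 3, and the differences given for each, thus rest on the titles. Deviations from group means correlated at -0.012, 0.157 and 0.157 within experiments 1, 2 and 3 and at -0.206 to 0.132 otherwise.

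Names came from the array's annotation table, updated through Entrez identifiers; 19071 probe sets had 1 gene name, 1043 had more and 2169 had no name. The members, lists and tests were chosen with earlier results of these data known. Named were all probe sets of the 10 genes and the 3 genes most like each of the 2 brightest members. From each other list, up to 3 genes were named by smallest unadjusted p on the brightest probe set. MIF, TGFB1, CSF1 and the cell type markers lie outside this rule. The fit was tested on simulated data with equal noise on all arrays and no experiment effect. That noise was estimated without the siLuc array of experiment 1, so the test does not cover an outlying array. Alternatives were no block, other offsets, scalings, filters and variance models, array weights, fewer probe sets, leaving out each experiment, or the siLuc array of experiment 1 together with the block, averaged probe sets and an exact permutation test. Fits without an experiment held 2 arrays a group, so their p-values lean more on the variance shared over all probe sets.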

Additional observations from a re-analysis of the deposited data

How the results depend on the processing

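The count of 0 probe sets past the threshold became 177 with array weights, 5 without _x_at and _s_at probe sets, 33 to 215 when an experiment was left out, and 0 when the siLuc array of experiment 1 and the block were both left out; the cause was not tested. It was also 0 with no replicate block, that is, without pairing the arrays by experiment, where 1378 had an unadjusted p under 0.05, against 1618 with it. That second count was 2513 with no filter and 892 without _x_at and _s_at probe sets, where more and fewer were tested. Of the 10 genes, 3 probe sets had an unadjusted p under 0.05, as with no replicate block. With median centring 1 did, where 2115 of all 13329 did. Without _x_at and _s_at probe sets 1 did, where 892 of 7088 did. There were 2 with no trend or without experiment 2 or 3, where 1325, 1328 and 1628 of 13329 did. With array weights, without experiment 1, or without the siLuc array of experiment 1 and the block there were 4, CCN1 (210764_s_at) added. In these settings 2314, 1843 and 1674 of all 13329 did. With quantile normalization the log2 fold change turned to 0.11 for CXCR4, -0.082 for FST (204948_s_at), -0.062 for CCN2 and 0.17 for ADAMTS6. With median centring it turned to 0.19 for CXCR4, 0.074 for FST (207345_at), 0.081 and 0.18 for CCN1, 0.18 for VCAN and 0.16 for ADAMTS6. With array weights FGF5 (210310_s_at) turned to -0.36 and CCN2 to -0.0094. The mean of a gene's kept probe sets was -0.089 for FST and -0.15 for FGF5. When experiments, or that array and the block, were left out, CXCR4 ranged from -0.49 to 0.17, FGF5 from -0.29 to 0.62 (208378_x_at) and -0.32 to 0.023 (210310_s_at), CCN2 from -0.11 to 0.26, FGFR2 from -1.30 to 0.13 and ADAMTS6 from -0.90 to 0.053; without that array and the block they were -0.0056 for FGF5 (210310_s_at) and -0.035 for CCN2, and without experiment 1 ADAMTS6 was -0.69. Among members 210 of 228 comparisons kept their direction. Many of these could not turn. Changing only the block, the filter or the variance trend leaves the estimate as it is, and so does the permutation test. On the brightest probe set per gene, SRGN, ADAMTS1 and MCAM had p = 0.1 by exact permutation (two-sided), the smallest that 3 arrays a group allow, and the others had 0.3 to 1. Median centring over the kept probe sets only, chosen after seeing the data, turned no member.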

Other observations

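The 4 probe sets that list MCAM together with MIR6756 differed in pattern from the probe set that lists MCAM alone. Probe set 210869_s_at had 2582, 2398 and 2008 on the siPTHrP arrays, against 751, 3297 and 3552 on the siLuc arrays. Probe set 211042_x_at had 1668, 1727 and 1366 with siPTHrP, against 1253, 2757 and 2405 with siLuc. On both, siPTHrP was lower in experiments 2 and 3 and higher in experiment 1. On 209086_x_at experiments 1, 2 and 3 differed by 1.24, -0.35 and -0.19 (log2), and on 211340_s_at by -0.86, 0.19 and 0.33 (log2). The siLuc array of experiment 1 was the lowest of the 6 on the first 3 of these and the highest on 211340_s_at and on 209087_x_at, the probe set of MCAM alone.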
